A study of Mus musculus with 38 samples.

Results

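Prm1, Smcp, Msh4, Zfp42, Pou3f1, Phox2a, Gdnf and Upk2 are 8 genes whose best known sites of expression lie outside the spleen. They were taken by the RefSeq accession of their probe, and each had 1 probe, so they are 8 of the 21618 distinct probes on the arrays and 8 of the 6518 that carried 1 gene symbol. The 8 were selected with results of these data already known, the irradiated against sham means among them, so those means stand below as a description without a test. Spleens of male mice were collected 3.5 h after 10 rad of X-rays (equal to 10 cGy) or sham treatment, and on each of 38 arrays the RNA of 1 irradiated and 1 sham-treated mouse of the same strain was hybridized in Cy3 and Cy5, with 19 arrays in either dye orientation. The labels give an age of 10 to 14 weeks, and the published methods give a younger range. The inbred strains, for which the labels name no transgene, were A/J (8 arrays), BalbxJ (8, Balb/C in the methods), B6.C (8), C3H (6, C3H/HeJ), BI6Jx (4, C57Bl6/J) and DBA/2J (4). Each mouse pair was hybridized again with the dyes exchanged, and the labels do not say which arrays share a pair, so arrays are not all independent animals.

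Protamines replace histones in the condensing nucleus of the spermatid, and sperm mitochondria carry their own cysteine-rich capsule protein. Meiotic cells use dedicated MutS homologs at crossovers, pluripotent cells are marked by a small set of transcription factors, and autonomic and glial development runs on POU and paired homeobox factors and on neurotrophic ligands of the Ret receptor. The umbrella cells of the bladder form plaques of uroplakins. A spleen consists mainly of B cells, T cells, macrophages and erythroid cells, with autonomic nerve fibres in its stroma. In RNA from a whole organ, fewer cells of a type and less RNA per cell cannot be told apart.

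The values are signed scores, 1 for each spot and array. Neither the log base, nor the dye that stands for a positive score, nor the centring was given in the sources used here, so a score is read here as a relative position and never as a fold change. Buffer spots held no probe, and Alien spots held control oligonucleotides of that name. Whether matching RNA was added for the Alien spots is not given in the sources used here. Spots of poor quality or low signal had been removed by the authors, so a missing value means that a spot did not pass. The median score of an array ran from -3.15 to 3.96, and the share of probe spots with a value from 50.9% to 91.9%. To remove the first of these, each array was also centred on the median of its probe spots, and the text calls such scores centred. Arrays 50 and 53 (B6.C) and array 97 (BI6Jx) each correlated below -0.3 with at least 3 arrays of their dye orientation, so their direction is not settled.

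Among the lymphoid and erythroid marker lists the median gene had a value on 35 arrays (B cell, 9 genes), 30.5 (T cell, 10 genes), 36 (macrophage, 9 genes) and 37 (erythroid, 7 genes). These are the defining cells of the labelled tissue. Their genes ranged down to Blk on 26 arrays among B cell genes, C1qb on 24 among macrophage genes and Gata1 on 20 among erythroid genes, while the T cell genes Cd3d and Cd5 were recorded on only 17 and 8. The other genes of the lists to which the 8 belong had a median of 29 arrays for 21 spermatid and sperm genes, 29 for 11 meiosis genes, 24 for 10 pluripotency genes, 30 for 25 neural genes and 25 for 3 urothelial genes. The median over all distinct probes was 32 arrays, and 81.4% of them had a value on at least 19. The pancreas list, 11 genes of another tissue near the spleen, had a median of 36 arrays.

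Prm1 is a protamine of sperm chromatin, and Zfp42, also called Rex1, is a zinc finger marker of pluripotent cells. Their centred scores correlated at r = 0.662 over 29 shared arrays, and at 0.969 over 26 without C3H. Prm1 and Phox2a correlated as closely over all shared arrays (0.681, n = 29). The upstream sequences of Prm1 and Zfp42 are shown as examples. RefSeq's table held promoter entries for Prm1, Smcp, Msh4, Zfp42, Phox2a and Gdnf. The 250 bases before the start are given 5′ to 3′, on build GRCm38.p6, which was not the source of the array design. Prm1 lies at chr16:10796824-10797073 and Zfp42 at chr8:43307010-43307259, both on the minus strand. Capitals mark 2 motifs searched on either strand without overlap between them, a cyclic AMP response element-like TGACTTCA and the octamer ATGCAAAT, which reads ATTTGCAT on the strand shown.
Prm1: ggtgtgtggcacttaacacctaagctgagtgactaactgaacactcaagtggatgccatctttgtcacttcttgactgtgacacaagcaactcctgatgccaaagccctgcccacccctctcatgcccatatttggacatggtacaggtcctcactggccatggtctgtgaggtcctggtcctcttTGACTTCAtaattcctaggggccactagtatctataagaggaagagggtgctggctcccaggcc
Zfp42: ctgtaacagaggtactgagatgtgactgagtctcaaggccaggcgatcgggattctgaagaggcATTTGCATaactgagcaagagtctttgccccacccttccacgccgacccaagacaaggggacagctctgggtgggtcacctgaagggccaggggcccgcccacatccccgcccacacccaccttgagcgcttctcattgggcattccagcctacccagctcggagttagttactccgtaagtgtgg
TGACTTCA began 64 bases before the start of Prm1, and it was also found 155 bases before 1 of the 2 starts listed for Gdnf. The octamer began 186 bases before the start of Zfp42. Windows of the same length held TGACTTCA in 1.31% and the octamer in 1.60% of 32851 promoters. The 2 windows had no motif in common among those searched.

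All 8 genes had values on 23 to 38 of the 38 arrays, and for none of them did a difference between the dye orientations pass the test. Gdnf and Upk2 were recorded on 38 arrays, Prm1 on 37, Smcp on 33, Phox2a on 30, Zfp42 on 29, Msh4 on 27 and Pou3f1 on 23. Of all distinct probes, 86.9% were recorded on fewer arrays than Gdnf and Upk2 and 24.7% on fewer than Pou3f1. With irradiated RNA in Cy5 and in Cy3 the counts were 19 and 18 for Prm1, 18 and 15 for Smcp, 13 and 14 for Msh4, 15 and 14 for Zfp42, 13 and 10 for Pou3f1 and 16 and 14 for Phox2a, each of 19 arrays. Fisher's exact test, two-sided with Benjamini-Hochberg adjustment over all probes, called 0 of the 8 and 0 of 21618 probes (0%). Gdnf and Upk2, with a value on all 38 arrays, and Prm1, on 37, could not have been called. Nor could Smcp, on 33 arrays, Phox2a, on 30, or Zfp42, on 29, even with every missing value in the same orientation. They lacked too few values to pass the adjustment, given only 173 probes with an unadjusted p under 0.05. For Gdnf, Upk2, Prm1, Smcp, Phox2a and Zfp42 nothing is therefore read from the absence of a call. Exchanged hybridizations of a mouse pair are not independent, so the p-values are a guide. At an unadjusted p under 0.05 there were 173 probes, none of them a member, and the exact Cochran-Mantel-Haenszel test by strain gave 194 and called 0 after adjustment. The lowest unadjusted p among the 8 was that of Smcp, a capsule protein of sperm mitochondria (p = 0.34, Fisher's exact test).

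The numbers of arrays with a value for all 8 genes lay within the range of the Alien spots, and those of 3 genes also within a range taken by buffer spots. Of 275 buffer spots 114 had no value on any array, 245 had one on at most 17 arrays, and the other 30 had one on at least 34. No buffer spot lay between 18 and 33 arrays, the range of Smcp, Msh4, Zfp42, Pou3f1 and Phox2a, whereas Prm1, Gdnf and Upk2 fell among the 30. The 96 Alien spots had a median of 32.5 arrays, and 27 of them were recorded on fewer arrays than Pou3f1 and 92 on fewer than Gdnf. Blank spots, 864 in number, had a value on at most 11 arrays.

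**Figure D1:**
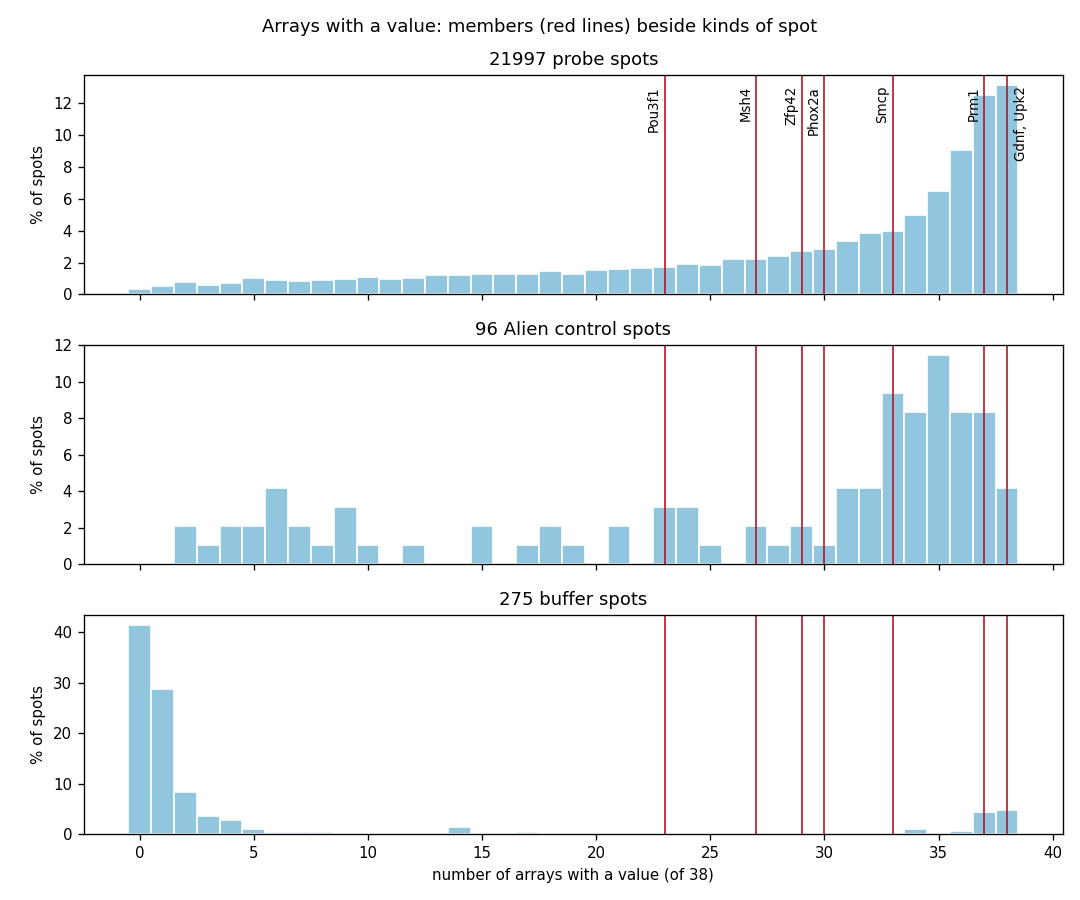
Number of arrays with a value (x axis, of 38) as the percentage of probe spots, Alien control spots and buffer spots (y axes), with a red line at each of the 8 genes. The 8 genes lie between 23 and 38 arrays, where Alien spots are frequent and where the only buffer spots are 30 recorded on 34 or more arrays.

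As deposited, the scores of the 8 genes followed the median of their array. Prm1 ran from -3.6 to 8.13 with a median of 2.04, Zfp42 from -17.3 to 5.97 with a median of 2.30, and Pou3f1 from -10.7 to 7.4 with a median of 1.91. Upk2 had the narrowest spread and ran from -2.49 to 3.30. Over the arrays with a value the deposited score correlated with the array median at r = 0.935 for Smcp (n = 33), 0.933 for Upk2 (n = 38), 0.90 for Gdnf (n = 38), 0.881 for Phox2a (n = 30), 0.771 for Pou3f1 (n = 23), 0.711 for Msh4 (n = 27), 0.641 for Prm1 (n = 37) and 0.633 for Zfp42 (n = 29). These arrays share mouse pairs, and each gene counts among the spots behind the median. Centring lowered the SD over arrays from 2.05 to 0.726 for Smcp, from 1.47 to 0.711 for Upk2, from 1.91 to 0.844 for Gdnf and from 2.33 to 1.10 for Phox2a. It lowered the others less, from 3.06 to 2.36 for Prm1, from 4.24 to 3.24 for Msh4, from 4.65 to 3.82 for Zfp42 and from 4.44 to 3.34 for Pou3f1.

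**Figure D2:**
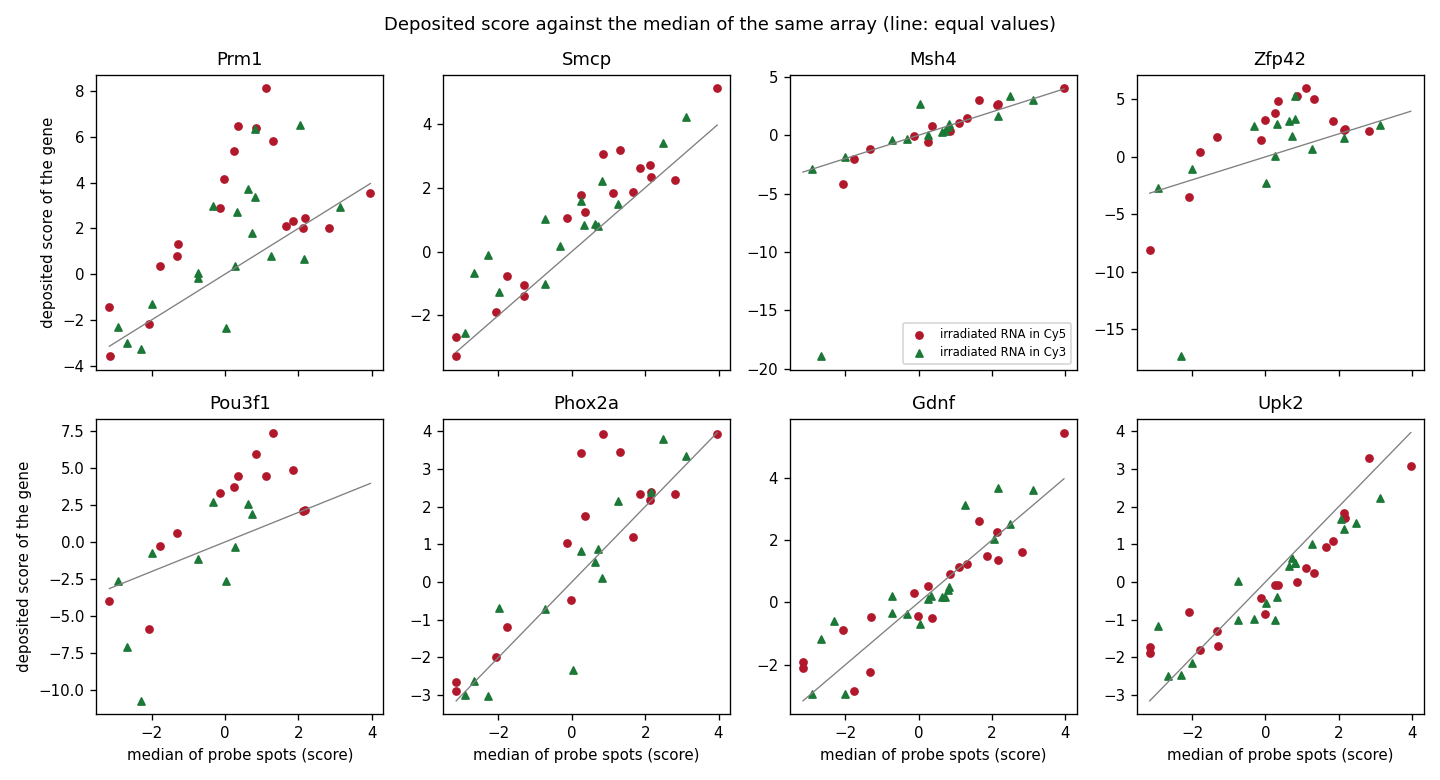
Deposited score of each gene (y axis) against the median score of the probe spots of the same array (x axis), 1 point per array, with the line of equal values. Smcp, Gdnf and Upk2 lie along the line, while Prm1, Zfp42 and Pou3f1 lie above it on many arrays and Msh4, Zfp42 and Pou3f1 far below it on single arrays.

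Prm1 was high in both dye orientations in BalbxJ, on part of the arrays of A/J and on the arrays of BI6Jx other than array 97. It was mostly near the array median in B6.C and C3H. In BI6Jx the centred score of Prm1 was 7.01 and 6.12 with irradiated RNA in Cy5, and 5.55 and -2.39 with it in Cy3, the last on array 97. In BalbxJ it was 2.11, 2.11, 5.13 and 5.51 in Cy5 and 1.08, 3.32 and 3.09 in Cy3, with array 84 not recorded. In A/J it was 0.441, 2.61, 4.18 and 0.461 in Cy5 and 0.584, 2.54, 4.48 and 2.37 in Cy3. All 15 recorded arrays of BalbxJ and A/J were above 0, and the orientations overlapped in both strains. In DBA/2J the scores were 4.50 and 3 with irradiated RNA in Cy5 against 0.0831 and 0.669 with it in Cy3, which do not overlap. In B6.C they ran from -1.47 to 0.614 with a median of -0.30, and in C3H from -0.996 to 1.70 with a median of -0.214. The arrays of B6.C therefore overlapped those of C3H but only the lowest 3 of A/J, and lay below each recorded array of BalbxJ.

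Zfp42 repeated this order outside C3H. Its centred score was 4.85 and 4.48 (irradiated in Cy5) and 4.51 and -2.32 (in Cy3) in BI6Jx, again with the negative score on array 97. In BalbxJ it ran from 1.13 to 4.46 over 7 arrays and in A/J from 1.22 to 3.27 over 4, all above 0. In DBA/2J it was 3.73 and 1.57 in Cy5 and -0.147 and 0.922 in Cy3, and in B6.C it stayed between -0.566 and 0.234 over 7 arrays. C3H stood apart, with -4.93 and -1.40 in Cy5 and -15.1 in Cy3, on the 3 of its 6 arrays where Zfp42 was recorded. These 3 scores lie below all others except that of array 97, which falls between them.

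Pou3f1, also called Oct6 and a POU-domain factor of Schwann cell and neural development, had the fewest values, and was likewise high in BalbxJ and near 0 in B6.C. In BalbxJ its centred score ran from 1.18 to 5.09 over 7 arrays, and in BI6Jx it was 3.32 and 4.10 in Cy5 and -2.68 on array 97. In DBA/2J it was 6.09 and 3.47 in Cy5 against -0.588 and 1.23 in Cy3. Only 2 arrays recorded it in A/J, at 3.03 in Cy5 and -0.443 in Cy3, and 3 in B6.C, all between -0.061 and 0.249. In C3H it was -0.841 and -3.83 in Cy5 and -4.48 and -8.45 in Cy3. The 4 arrays of C3H and array 97 were thus the lowest 5 of the 23.

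Msh4, a MutS homolog of meiotic recombination, stayed near the array median except on a few arrays. Its centred median was 0.00804 over 27 arrays. The lowest score was -16.3 on an array of C3H with irradiated RNA in Cy3, the next -2.11 on the only other recorded array of C3H, and the highest 2.61 on array 97, where Prm1, Zfp42, Pou3f1 and Phox2a were all negative. Without C3H the SD of Msh4 over arrays was 0.683, against 3.24 with it. For Zfp42 the SD was 1.96 without C3H and for Pou3f1 2.18, against 3.82 and 3.34.

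Phox2a, a paired homeobox factor of autonomic neurons, was close to the array median in A/J (-0.717 to 0.478, 5 arrays), B6.C (-0.484 to 0.901, 8 arrays) and C3H (-0.722 to 0.492, 5 arrays). It was above 0 on all 4 arrays of DBA/2J (0.557 to 2.13) and highest on 2 arrays of BalbxJ, at 3.16 and 3.07. Array 97 gave its lowest score, -2.37.

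Smcp, Gdnf and Upk2 stayed within a narrow band. Smcp was above 0 on 29 of 33 arrays, from -0.585 to 2.19, and in C3H its orientations did not overlap, at 1.76, 1.99 and 2.18 with irradiated RNA in Cy3 and 0.461, -0.144 and 0.166 with it in Cy5. Gdnf, a neurotrophic ligand that signals through Ret, was above 0 on 19 and below 0 on 19 of 38 arrays. Its 6 arrays of C3H all lay above 0, from 0.946 to 1.69, while BalbxJ ran from -1.07 to 0.28 and BI6Jx from -0.86 to 0.0288, without overlap with C3H. Upk2, a uroplakin of the bladder epithelium, was below 0 on 30 of 38 arrays. In C3H it was 1.27, 1.42 and 1.27 in Cy5 and 0.774, 0.17 and -0.174 in Cy3, whereas the other strains ran from -1.26 to 1.76 and only B6.C passed above 0.1. The median of the buffer spots was also mostly higher in C3H, at centred scores of -0.05 to 1.56 on the 6 arrays, against a highest value of 0.638 on any other array. On arrays 24, 25, 27 and 26 of C3H the buffer median was 0.49, 0.673, 0.704 and 0.805. There Gdnf was 0.946, 1.24, 1.03 and 1.48, and Upk2 was 0.774, 1.27, 1.42 and 0.17. On array 28, where the buffer median was 1.56, Upk2 was -0.174 and Gdnf 1.69. On array 29, where it was -0.05, Upk2 was 1.27 and Gdnf 1.18. The part of the buffer shift in the scores of Gdnf and Upk2 was not tested.

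**Figure D3:**
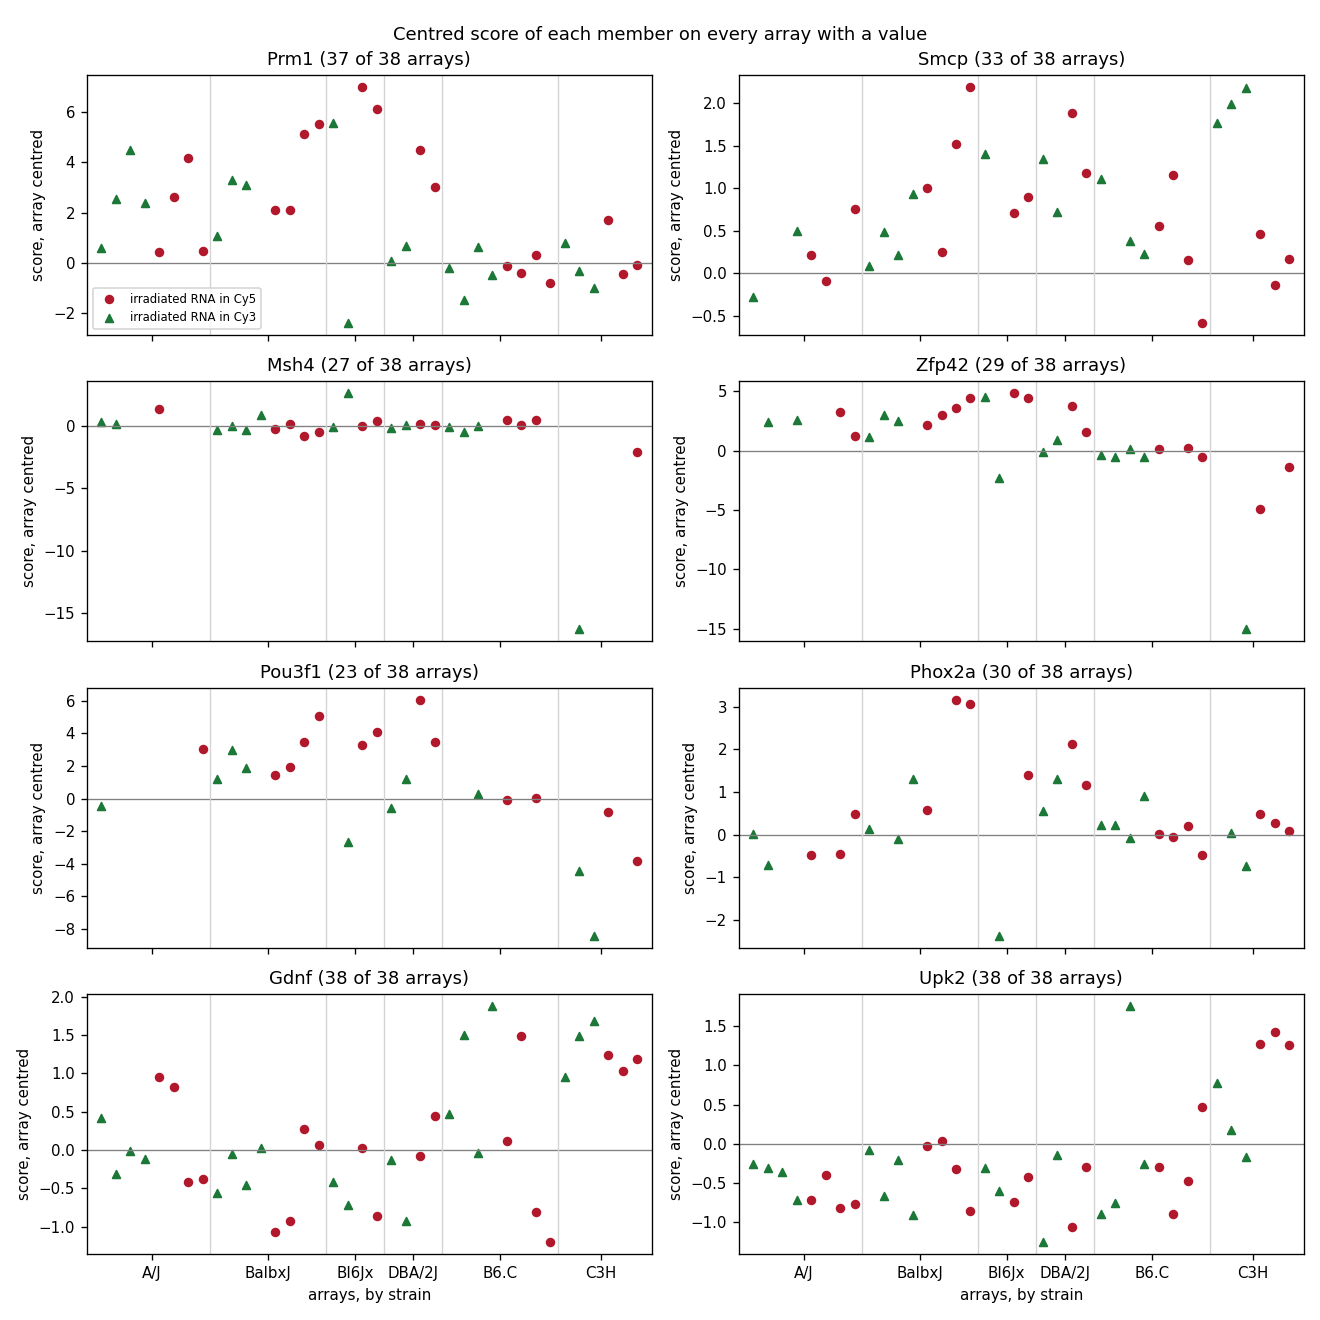
Centred score of each gene (y axes, own scale per gene) on each array with a value, grouped by strain, with circles for irradiated RNA in Cy5 and triangles for it in Cy3. Prm1, Zfp42 and Pou3f1 are high in both dye orientations in BalbxJ and on the recorded arrays of BI6Jx other than array 97, and near 0 in B6.C, and Zfp42, Pou3f1 and Msh4 reach their lowest scores in C3H.

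The scores of Prm1, Zfp42, Pou3f1 and Phox2a varied together. Over shared arrays the centred scores correlated at r = 0.899 for Zfp42 and Pou3f1 (n = 21), 0.772 for Prm1 and Pou3f1 (n = 23), 0.662 for Prm1 and Zfp42 (n = 29), 0.707 for Pou3f1 and Phox2a (n = 20) and 0.681 for Prm1 and Phox2a (n = 29), and less closely, at 0.471, for Zfp42 and Phox2a (n = 24). Without C3H the value for Prm1 and Zfp42 was 0.969 (n = 26). Smcp then correlated with Prm1, Zfp42, Pou3f1 and Phox2a at 0.496 to 0.77 (n = 18 to 26), against -0.101 to 0.485 with C3H. Msh4 correlated with the same genes at -0.614 to -0.42 without C3H (n = 18 to 24), against -0.156 to 0.452 with it. Which genes varied together therefore depended on C3H. Gdnf and Upk2 did not belong to this group, with r of -0.334 and -0.244 against Prm1 (n = 37 for both). The arrays behind these values share mouse pairs, dyes and centring, and the values are descriptions.

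The pattern was not limited to these genes. Of 17389 probes with enough shared arrays, 174 correlated with Prm1 at r of 0.9 or more, and the nearest named ones were Nbr1 (0.971, n = 29), an autophagy receptor, and Myoz1 (0.97, n = 26), a protein of the muscle Z-disc. Myoz1 was also the nearest to Zfp42 (0.974, n = 23), followed by Mageb3 (0.97, n = 22). For Pou3f1 they were Inmt (0.955, n = 20), a methyltransferase, and Ptger1 (0.953, n = 19), a prostaglandin E receptor, and for Phox2a Hes1 (0.904, n = 20), a Notch target, and Slc37a2 (0.876, n = 28). Msh4 was nearest to Ptk6 (0.985, n = 23) and Elovl3 (0.982, n = 26), with 203 probes at 0.9 or more. Msh4 stood at -16.3 on 1 array of C3H and at -2.11 to 2.61 on its others. Zfp42 stood at -15.1 on 1 array of C3H and at -4.93 to 4.85 on its others. The r values of these genes can rest on such a single array, and r without it was not computed. Upk2 was nearest to Bcl7b (0.969) and to the chemokine gene Ccl27a (0.889), both over 38 arrays, Gdnf to the proteasome subunit gene Psmb3 (0.948, n = 38) and to Pde4b (0.932, n = 36), and Smcp to Dlc1 (0.823, n = 23) and Paics (0.795, n = 30), with no probe at 0.9.

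Single control spots correlated closely with Prm1, while most did not. The Alien spot nearest to Prm1 correlated at r = 0.918 (n = 35). Its centred score ran from 1.43 to 5.81 on 7 arrays of BalbxJ, from 1.19 to 4.04 on 6 of A/J, from -1.26 to 1.30 on 8 of B6.C and from -0.827 to 5.61 on 4 of BI6Jx. In these strains a control oligonucleotide, picked for its high r, was high and low along with this sperm gene. In C3H this Alien spot ran from 1.03 to 1.63, where Prm1 ran from -0.996 to 1.70 with a median of -0.214. In DBA/2J it was 4.42 and 2.18 with irradiated RNA in Cy5, where Prm1 was 4.50 and 3. On both arrays of DBA/2J with irradiated RNA in Cy3 it was 1.64, where Prm1 was lower, at 0.0831 and 0.669. Of the 72 Alien spots compared, 8 reached r of 0.5 with Prm1, and the median was -0.00181. The nearest buffer spot correlated with Prm1 at 0.849 (n = 34), and 5 of 30 reached 0.5, against 23.2% of probes. For Zfp42, Pou3f1 and Gdnf the nearest Alien spot stood at 0.835 (n = 21), 0.877 (n = 19) and 0.907 (n = 31), for Phox2a, Msh4 and Smcp at 0.773 (n = 22), 0.743 (n = 21) and 0.705 (n = 32), and for Upk2 at 0.683 (n = 36). The nearest buffer spot stood at 0.431 (n = 26) for Zfp42 and at 0.844 (n = 37) for Gdnf.

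In spread over arrays the genes fell into 2 sets. The SD of the centred scores was larger for Prm1, Msh4, Zfp42 and Pou3f1 than for any of the 30 buffer spots, whose SDs ran from 0.426 to 1.68 with a median of 0.87. The SDs of Smcp, Gdnf and Upk2 lay inside that range, above 11 or 12 of the 30 spots, and that of Phox2a above 25. Of the 72 Alien spots, with SDs of 0.416 to 3.45, the SD of Zfp42 exceeded all 72, those of Pou3f1 and Msh4 71, and that of Prm1 69. Among all probes with at least 19 values 99.7% had a smaller SD than Zfp42, 96.1% a smaller SD than Prm1 and 21.8% a smaller SD than Upk2. Without C3H, Msh4 fell inside the buffer range, and the other 3 stayed above it. That split repeats what the centred scores by strain showed, and no test was made of it.

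**Figure D4:**
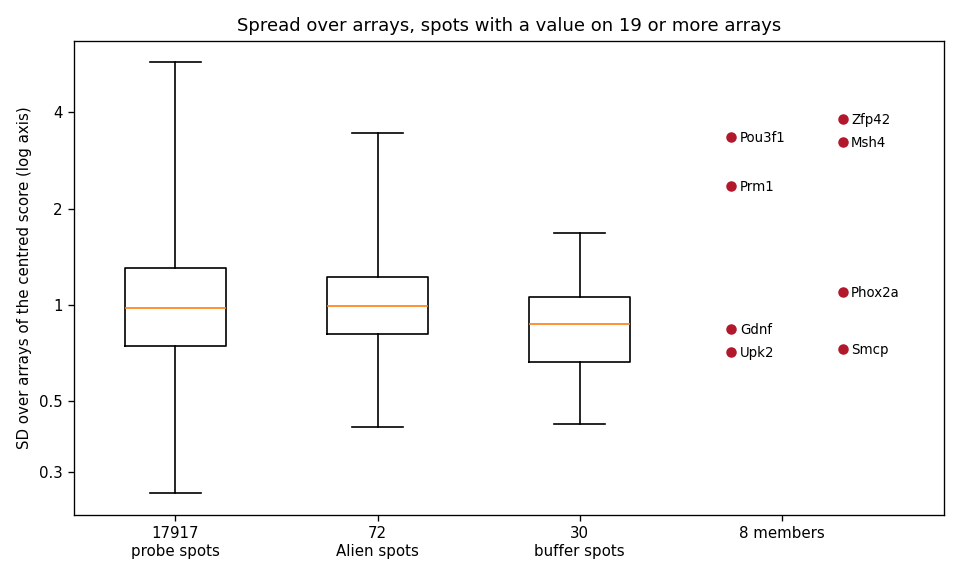
SD over arrays of the centred score (y axis, log scale) for probe spots, Alien spots and buffer spots with at least 19 values (boxes with median and quartiles, whiskers to the lowest and highest spot) and for the 8 genes (red points, set side by side for legibility). Zfp42, Pou3f1, Msh4 and Prm1 lie above the highest buffer spot at 1.68, and the other 4 genes lie inside the buffer range.

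Array by array, 31 of the 255 scores of the 8 genes (12.2%) lay outside the range of the buffer spots of the same array, against 6.45% of all probe scores. The 8 were selected with their turned means known, which favours extreme scores, and the arrays share mouse pairs. The shares in this paragraph are therefore descriptions, and nothing is read from their excess over all probes. Prm1 accounted for 10 of these (8 above and 2 below, of 37 arrays), Zfp42 for 7 of 29, Pou3f1 for 6 of 23 and Gdnf for 3 of 38. Smcp had 2, and Msh4, Phox2a and Upk2 had 1 each. Outside the range of the Alien spots lay 16 of the 255 (6.27%), against 3.78% of all probe scores, with 7 from Prm1 and none from Phox2a, Gdnf or Upk2. The range of the buffer spots was wide, and their middle 50% left out 30 of 37 scores of Prm1, 25 of 29 of Zfp42, 20 of 23 of Pou3f1 and 22 of 30 of Phox2a, against 54.6% of all probe scores. For Smcp it left out 23 of 33, for Gdnf 18 of 38, for Upk2 16 of 38 and for Msh4 11 of 27.

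If a score is a ratio of one dye to the other, a score that follows the irradiated RNA changes sign when the dyes are exchanged, and one that follows the dye keeps it. Were the scores already set as irradiated over sham, the roles of the averages below would be exchanged, and the sources used here do not settle this. For each strain the means of both orientations were therefore averaged without turning (the dye term) and after turning those with irradiated RNA in Cy3 (the turned mean), each with the strain as the unit (n = 6). The dye term played no part in the selection and was tested. Smcp had a dye term of 0.822 ± 0.419 (SD over 6 strains), positive in all 6, and Prm1 one of 1.87 ± 1.70, positive in 5 and at -0.319 in B6.C. Neither passed over 14513 probes (adjusted p = 0.0828 for Smcp and 0.0967 for Prm1, limma with Benjamini-Hochberg adjustment), and 0 of the 8 genes and 0 of all probes were called (0%), with 3512 probes at an unadjusted p under 0.05. The other genes had dye terms of -1.29 ± 3.89 (Msh4), 0.0395 ± 4.62 (Zfp42), 0.43 ± 2.57 (Pou3f1), 0.335 ± 0.795 (Phox2a), 0.135 ± 0.642 (Gdnf) and -0.254 ± 0.541 (Upk2).

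The count of dye calls changed when C3H or B6.C was left out. Without C3H, 5 of the 8 genes were called, beside 13.7% of 14782 probes. These were Zfp42 at 1.87 and Prm1 at 2.23 (adjusted p = 0.0469 for both, limma), Smcp at 0.772 (adjusted p = 0.0469), Pou3f1 at 1.40 (adjusted p = 0.0484) and Upk2 at -0.462 (adjusted p = 0.0493). Without B6.C, Prm1 and Smcp were called, beside 13.2% of 14253 probes. With arrays rather than strains as units, which counts exchanged hybridizations of a mouse pair as independent, both were called as well, beside 31% of 14513 probes. Among control spots recorded in both orientations of each strain the same average ran from -0.399 to 1.49 over 29 buffer spots and from -0.639 to 2.18 over 61 Alien spots, so that of Prm1 lay above all buffer spots and below 1 Alien spot.

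Zfp42, Smcp and Upk2 had means of the same sign in both orientations in all 6 strains, Prm1 in 5, and Msh4, Pou3f1, Phox2a and Gdnf in 3. Over all probes tested the median was 4 strains, and 30.1% had at least 5. Of the pairs of spot and strain, 63.5% had one sign for all probes, 72.4% for the 29 buffer spots and 67.5% for the 61 Alien spots.

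The turned means, which contributed to the selection, were largest for Pou3f1 and Zfp42. As deposited they were 2.33 ± 1.24 (Pou3f1, SD over 6 strains), 1.77 ± 2.13 (Zfp42), 1.59 ± 2.98 (Msh4), 0.962 ± 1.30 (Prm1), 0.807 ± 0.704 (Phox2a), 0.16 ± 0.539 (Upk2), 0.097 ± 0.926 (Smcp) and 0.0818 ± 0.672 (Gdnf). On that scale Msh4, Zfp42 and Pou3f1 were among 31 called probes, where 0.214% of 14513 were called, which the selection had used and from which nothing is read. The fit gave all probes the same standard error, 0.343, so these calls followed the size of the mean and not its spread over strains. Centred, the turned means were 1.59 ± 1.22 (Pou3f1), 1.57 ± 2.25 (Zfp42), 1.21 ± 2.90 (Msh4), 0.808 ± 1.07 (Prm1), 0.56 ± 0.743 (Phox2a), 0.0508 ± 0.251 (Upk2), -0.027 ± 0.297 (Gdnf) and -0.0978 ± 0.471 (Smcp). No probe was called then (0% of 14513, limma), with 1201 at an unadjusted p under 0.05. Phox2a, Prm1, Msh4, Zfp42 and Pou3f1 had a centred turned mean above 0.5, but that of Prm1 was 0.478 without array 97. Over the alternatives that gave a value, the mean stayed above 0.5 for Zfp42 and Pou3f1 (lowest 0.696 and 1.15). It fell as low as 0.462 for Prm1, 0.165 for Phox2a and 0.0318 for Msh4.

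Much of these means came from few strains and few arrays. In C3H the centred turned mean of Msh4 was 7.08, from 1 array in either orientation (-2.11 and -16.3), and that of Zfp42 5.94, from -4.93, -1.40 and -15.1. Both orientations were negative in these cases, and the turned mean was positive because the array in Cy3 was the more negative. Without C3H the turned mean of Msh4 was 0.0318, that of Zfp42 0.696 and that of Pou3f1 1.5. In BI6Jx the turned means were 3.19 for Pou3f1, 2.49 for Prm1 and 1.88 for Phox2a, where array 97 supplied the only value with irradiated RNA in Cy3 for Pou3f1 and Phox2a. With the sign of array 97 turned, an alternative added after the data were seen, the mean over strains of Pou3f1 was 1.15 and that of Phox2a 0.165. In B6.C the lowest turned mean was -0.529, that of Gdnf, and the highest 0.267, that of Msh4. In the 29 buffer and 61 Alien spots the same turned mean ran from -0.439 to 0.496 and from -0.70 to 0.435. The genes were selected with their turned means known, so nothing is read from a comparison with these control spots.

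**Figure D5:**
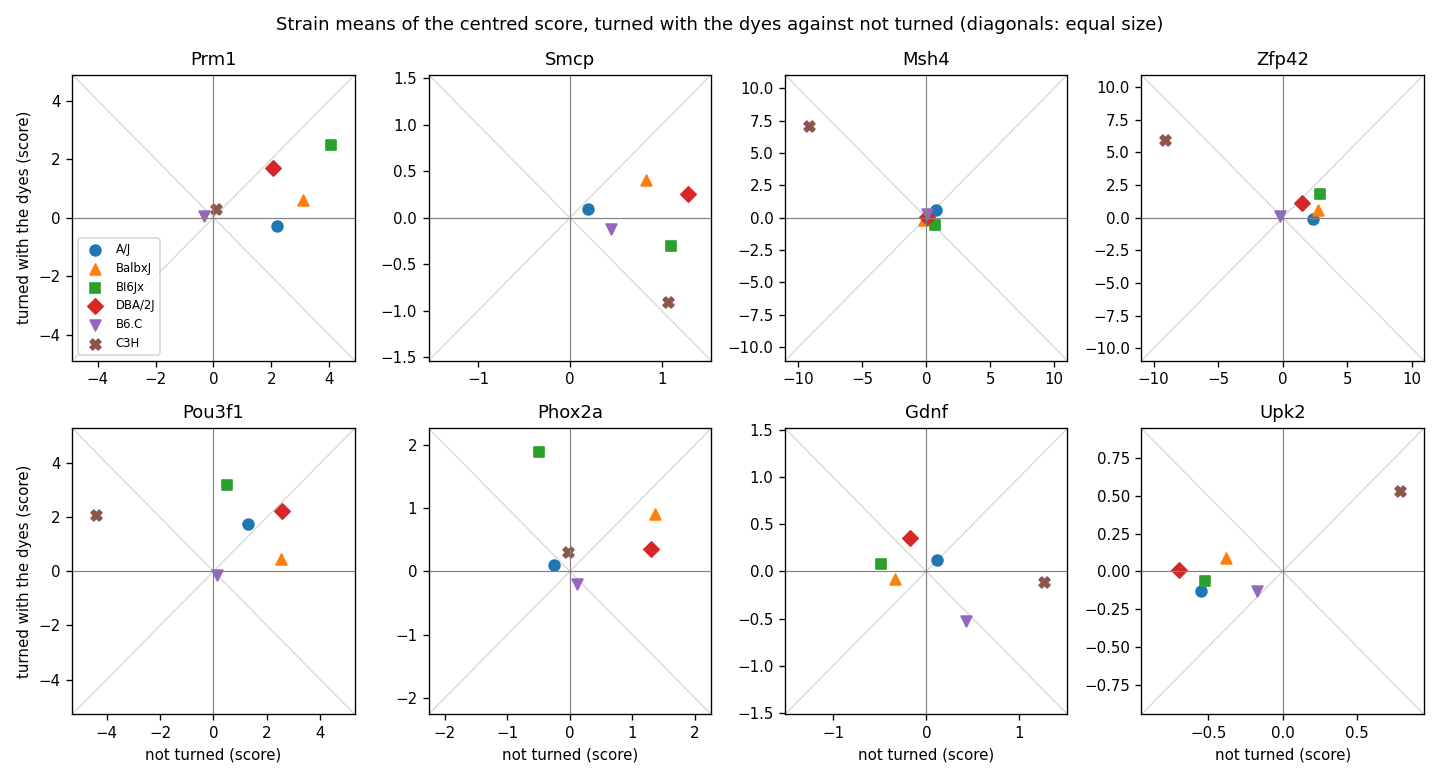
Strain means of the centred score after turning the arrays with irradiated RNA in Cy3 (y axis, score) against the same means without turning (x axis, score), 1 point per strain, own scale per gene, with grey diagonals where both are of equal size. Points between the diagonals and nearer the horizontal axis had the same sign in both dye orientations, as in all 6 strains for Zfp42, Smcp and Upk2, and C3H stands far from the other strains for Msh4, Zfp42 and Pou3f1.

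Other genes of the same lists served as a comparison. Of the sperm list, Crisp2, a secretory protein of sperm, was recorded on 37 arrays and Prm3, encoded in the protamine cluster, on 36, while Ldhc, the testis lactate dehydrogenase, and Tnp1, a transition protein of spermatids, were recorded on 9 each. Rec8, a meiotic cohesin, was recorded on 38 arrays and Stra8, which starts meiosis, on 6. Among pluripotency genes Nodal and Tdgf1 were recorded on 38, Fgf4 on 1 and Sox2 on 0. In the neural list Nefm, a neurofilament, and Pou3f2, a relative of Pou3f1, were recorded on 38 and Pou3f4 on 9, and in the urothelial list Trp63 on 26, Krt13 on 25 and Krt7 on 13. Pou3f2 had a dye term of 1.62, against 0.43 for Pou3f1, and a turned mean of 0.681, against 1.59 for Pou3f1. The turned mean contributed to the selection of Pou3f1, so nothing is read from the latter difference.

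None of these other genes was called for the turned mean or the dye term (limma, adjusted over all probes). Turned means were above 0 for 5 of 10 other sperm genes tested, 4 of 6 meiosis genes, 2 of 4 pluripotency genes, 11 of 15 neural genes and 1 of 2 urothelial genes. Over all 14513 probes tested 49.4% were above 0. The medians of the lists were -0.0191, 0.113, -0.0291, 0.076 and 0.109, beside -0.00373 over all probes. An unadjusted p under 0.05 (limma) was found for 1, 0, 0, 2 and 0 of the genes, beside 1201 of the 14513 probes. For the dye term the counts at that level were 3 of 10, 2 of 6, 1 of 4, 6 of 15 and 0 of 2, beside 3512 of 14513. With so few genes per list, nothing is read from these counts. The median SD over arrays was 1.29 for the other sperm genes, 0.964 for meiosis, 1.08 for pluripotency and 0.974 for neural genes, beside 0.982 over all probes with at least 19 values. The SDs of Prm1, Msh4, Zfp42 and Pou3f1 stood above the medians of their lists, but these genes were selected with results of these data known.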

How the data were processed

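The deposited values are scores, 1 signed number for each of 23232 spots on 38 arrays. Per the published methods, the authors removed spots of poor quality or low expression, subtracted local background and applied Lowess, and their median centring between slides was made for another use. The scores are used as deposited and after subtracting each array's median over probe spots, with spots of 1 probe averaged. Probes were named through RefSeq (GRCm38.p6). The 8 genes and the gene lists were chosen with earlier results of these data known. Named genes were the 8, up to 4 genes per list by arrays with a value, and the 2 named probes most correlated with each. Strain means (6 strains) were fitted with limma 3.58.1 in R 4.3.3, for probes recorded on 19 or more arrays and, within each strain, in either dye orientation. An adjusted p under 0.05 (Benjamini-Hochberg) was called, and the fit was tested on simulated data. Presence was compared with Fisher's exact test. The number of strains and arrays limits the precision. Alternatives were another centring, scaling, unit, filter or direction of 3 arrays, and leaving out strains or arrays.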

Additional observations from a re-analysis of the deposited data

How the results depend on the processing

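The count of probes called for the turned mean was 0 in 54 of 55 alternatives and 31 with scores as deposited, where 3 of the 8 genes were among them. For the dye term, 4499 probes were called with arrays as units, 628 with values required on all 38 arrays, 1878 without B6.C and 2031 without C3H, and 0 in the others. The genes called were 2 with arrays as units, 2 without B6.C and 5 without C3H, and 0 of the 2 tested with values on all 38 arrays. The cause was not tested. The dye term of Zfp42 turned negative without A/J (-0.427), BalbxJ (-0.505), BI6Jx (-0.529) or DBA/2J (-0.256), and ran from -0.245 to 0.324 with single arrays left out. Without C3H the dye term of Msh4 turned to 0.289 and that of Gdnf to -0.0907. Presence called 0 probes in 40 alternatives. Leaving out any single array gave 0 calls for the turned mean and the dye term. Genes with an SD above all buffer spots numbered 4, with 5 as deposited (Phox2a joined) and 3 without C3H (Msh4 left), the latter alternative added after the data were seen. Each gene had 1 spot, so a count by spot or a median over spots could give no other value for it. With array 97 left out, Pou3f1 and Phox2a had no value in 1 orientation of BI6Jx and were not tested. No paired analysis was possible because the labels do not say which arrays share a mouse pair. Probes that passed quality on few arrays are less reliable, Pou3f1 foremost, with 23 arrays.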
